A study of Drosophila melanogaster with 2 samples.

Results

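The 7 genes described here, kirre, CG1677, Tet, heca, Tlk, Svil and CG43658, are long Drosophila genes that hold many binding sites of Gug. They were chosen by their number of peak summits, the bases of highest signal within the peaks, counted over the gene and the 2000 bp upstream of it. That makes 7 of 13945 protein-coding genes on the chromosome arms, and 132 of the 5750 summits that the list of both replicates together holds on the arms. High counts in that list are therefore the rule of choice and not a result, and the summits of a gene are not replicates of one another.

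Gug was fused to eGFP by an insertion that targets the Gug gene, and chromatin of whole prepupae at 1 day was broken by sonication, pulled down with an anti-GFP antibody before sequencing. The 2 biological replicates were of the same strain and stage, the sex of the animals was not collected, and the labels list possible controls in a separate experiment. There was a single group, so nothing here compares conditions, and whole animals mix all tissues, so the cells in which a site is bound were not measured. The deposited data are peak lists on the dm6 assembly with a signal per peak and no read depth, and whether the tag alters where Gug binds was not tested.

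Gug, or Grunge, is the fly Atrophin, a corepressor of transcription, a protein that is brought to DNA by sequence-specific factors and helps to silence nearby genes. Long Drosophila genes consist mostly of introns, and introns are where many enhancers lie, including enhancers of other genes. Small genes can also sit wholly inside an intron of a long one, so a summit inside a long gene need not belong to it.

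The strongest summit of each gene is shown first, since the account of each gene below starts from its strongest site. Each sequence is the plus strand of the RefSeq copy of dm6, with the summit in the centre and 100 bases on either side of it, and none overlaps an annotated exon. Capitals mark a match on either strand to any of the 10 short words searched, which are spelled out with their counts near the end.
kirre chrX:2786665-2786865: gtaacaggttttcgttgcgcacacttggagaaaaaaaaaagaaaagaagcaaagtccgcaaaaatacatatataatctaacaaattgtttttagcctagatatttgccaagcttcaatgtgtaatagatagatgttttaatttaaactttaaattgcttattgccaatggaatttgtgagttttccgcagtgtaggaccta
CG1677 chrX:7324933-7325133: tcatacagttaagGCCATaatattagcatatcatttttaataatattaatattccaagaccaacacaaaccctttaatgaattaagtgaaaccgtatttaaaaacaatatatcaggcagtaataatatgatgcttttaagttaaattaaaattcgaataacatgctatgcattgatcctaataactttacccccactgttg
Tet chr3L:2824101-2824301: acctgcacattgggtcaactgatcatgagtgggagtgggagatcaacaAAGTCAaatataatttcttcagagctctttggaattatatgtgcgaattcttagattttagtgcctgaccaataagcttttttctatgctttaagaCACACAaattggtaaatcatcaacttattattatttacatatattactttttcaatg
heca chr3R:30296066-30296266: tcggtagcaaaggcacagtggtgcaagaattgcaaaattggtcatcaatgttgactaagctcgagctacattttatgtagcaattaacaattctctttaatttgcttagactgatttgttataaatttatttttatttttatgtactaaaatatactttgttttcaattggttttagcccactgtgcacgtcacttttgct
Tlk chrX:3742113-3742313: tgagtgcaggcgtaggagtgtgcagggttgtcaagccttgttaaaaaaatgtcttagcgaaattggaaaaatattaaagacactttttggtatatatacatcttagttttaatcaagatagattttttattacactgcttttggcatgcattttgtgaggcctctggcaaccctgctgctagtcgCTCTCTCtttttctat
Svil chr3L:2494218-2494418: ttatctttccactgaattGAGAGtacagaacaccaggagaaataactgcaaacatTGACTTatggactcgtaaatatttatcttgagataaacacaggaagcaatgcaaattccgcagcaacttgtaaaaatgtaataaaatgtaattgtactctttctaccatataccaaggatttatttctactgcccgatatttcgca
CG43658 chrX:17561967-17562167: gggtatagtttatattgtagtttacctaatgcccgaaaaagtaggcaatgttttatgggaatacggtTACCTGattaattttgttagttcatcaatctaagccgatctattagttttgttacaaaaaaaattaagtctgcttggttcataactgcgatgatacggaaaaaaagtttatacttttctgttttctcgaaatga
The sites of kirre, CG1677, Tet, heca and Tlk lie in introns, that of Svil lies 220 bp from one of its own transcript starts, and that of CG43658 lies 887 bp upstream of the gene. Their GC content ran from 27.4% at CG1677 to 37.3% at Tlk, against a median of 35.3% in such windows of all summits, which only Tlk exceeded. The windows of kirre and heca contain none of the words, and the other 5 contain 1 or 2 different ones. In the Tlk window the run CTCTCTC holds the word GAGAG 2 times on the minus strand.

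The order of counts placed the 7 genes among the 10 with 15 or more summits, which are 0.0717% of coding genes. sbb led with 26, followed by kirre with 25, CG1677 with 23, Snoo with 22, Tet with 19, heca with 18, Tlk with 17 and shn with 16. Svil and CG43658 had 15 each and were the last inside the choice. The next gene below was cv-c with 14, and Raf, CG12535, Hr4, tai, spri and Eip75B had 13 each, so the members at the lower end differed from the genes just outside by 1 or 2 summits. Genes sbb, Snoo and shn had counts as high and are not among the 7.

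Set against length, the 7 genes fell into an order of their own. kirre was by far the longest, at 394149 bp the 5th longest coding gene, and had only 0.631 summits per 10 kb. The X chromosome as a whole held 49.2 summits per Mb, and at that rate a window of this size would hold 19.5, so kirre had 1.28 times the number that its length gives. The other 6 genes, of 69764 to 124709 bp, had 2.59 to 4.81 times the number given by length and the mean rate of their own arm. Tlk, the shortest, was densest, with 2.37 summits per 10 kb, and had 17 where its length and the rate of X give 3.53. heca had 4.63 times the arm rate, Tet 4.28, CG1677 3.69, CG43658 2.85 and Svil 2.59.

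**Figure D1:**
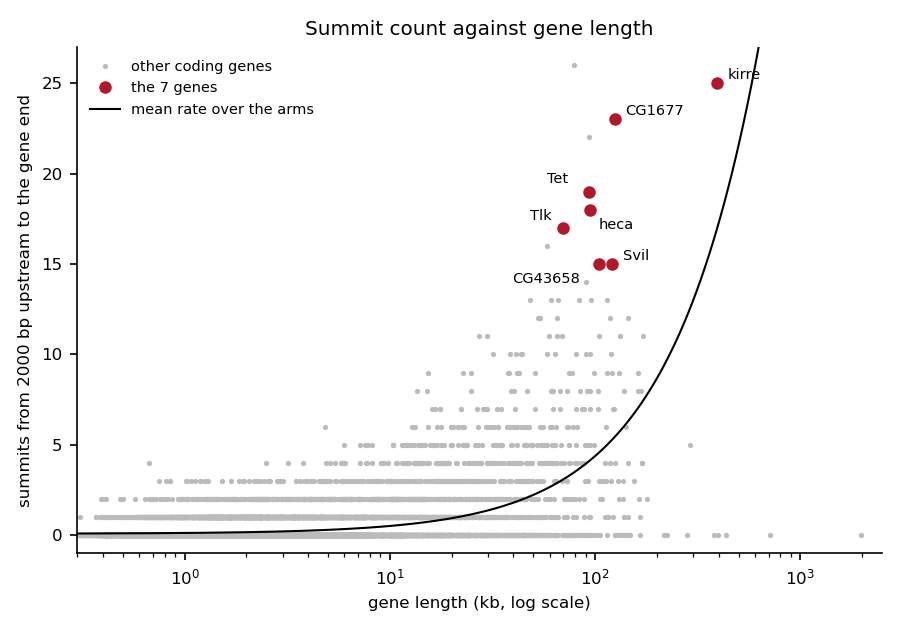
Summits per gene with its 2000 bp upstream (vertical axis) against gene length in kb (log scale) for all coding genes, with the 7 genes in red and a line for the mean rate over the arms. kirre, with 25 summits on 394149 bp, lies closest to the line, and the other 6 genes lie well above it.

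Genes of similar length, within 25% of a member's own, mostly had few summits. CG1677 had 74 such genes with a median of 3 summits, and none reached its 23. Tet had 115 with a median of 2, and sbb and Snoo had as many as Tet. heca had 109 with a median of 2, of which 3 had 18 or more, and Tlk had 176 with a median of 2, of which 1, sbb, had 17 or more. Svil had 80 with a median of 3 and CG43658 had 94 with a median of 3, and there 5 and 6 genes reached 15. Between 21 and 56 genes of each of these 6 sets had no summit at all. For kirre only 3 genes, lovit, CG17684 and DIP-lambda, were of similar length (379081 to 434041 bp), none of them on X. All 3 had 0 summits, as did the 2 longest genes of all, Myo81F and Pzl. Why these genes had none was not tested, so this set of 3 says little about the count of kirre. Every member stood above the upper quartile of its length set, which ran from 0 for kirre to 8 for Svil, but the members were chosen for this. Among coding genes of 50 kb to 100 kb the median was 2 summits in 224 genes, and above 100 kb it was 3 in 83 genes.

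The counts held a similar order in each replicate alone, where fewer peaks passed. kirre had 19 summits in the thresholded list of replicate 1 and 19 in that of replicate 2, the most of any coding gene in both. CG1677 had 15 and 15, ranked 3 in both. Tlk had 13 and 14. These 3 genes ranked in the first 5 of all coding genes in either replicate. Tet had 10 and 13, heca 9 and 11, Svil 8 and 13, and CG43658 10 and 9, and these 4 ranked between 6 and 19. In the conservative set, the smaller of the deposited sets for both replicates, kirre had 29 summits and again the highest count. The replicate lists come from the same chromatin samples as the combined list, so they are no separate sample of the choice.

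**Figure D2:**
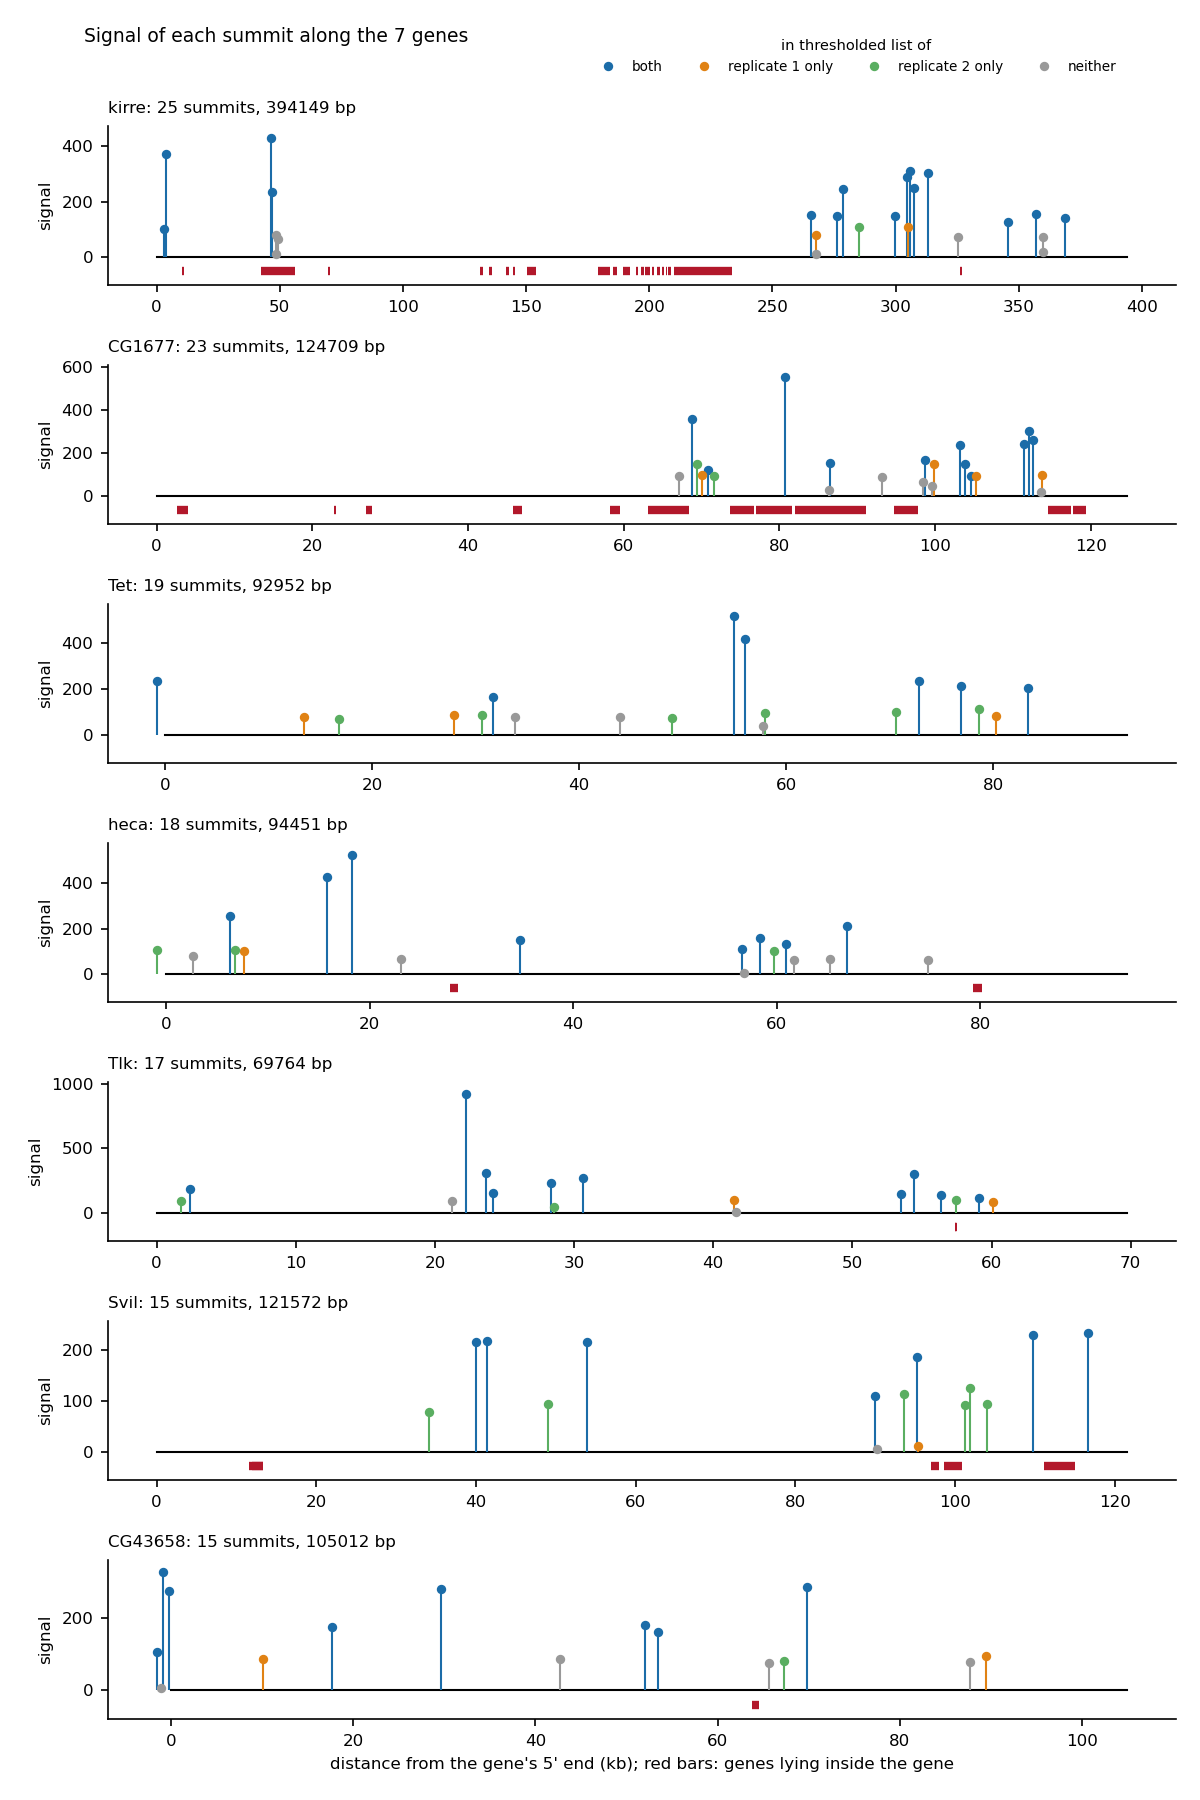
Deposited signal (vertical axis, no unit) of each summit along the 7 genes, in kb from the gene's 5′ end, coloured by the replicates whose thresholded list holds it, with red bars for genes lying inside. In kirre 7 summits lie near the 5′ end and 18 after a stretch of 216274 bp with none, and in CG1677 all 23 lie within 46711 bp.

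kirre (FBgn0028369, X 2740384 to 3134532, plus strand), also known as dumbfounded, encodes an immunoglobulin-family membrane protein of muscle founder cells that is needed for myoblast fusion. Its 25 summits fell into separate stretches. The first 7 lie between 2743302 and 2789717, inside intron 2 of the longest transcript, and only 3 of the 7 transcripts span them. The other 18 lie in intron 5, from 3005991 to 3109080, at 1.75 summits per 10 kb. Between them, over 216274 bp or 54.9% of the gene, no summit passed, although no base there is unknown in the assembly. The combined ranked list, which also keeps the peaks that failed the threshold, holds 91 peaks in that stretch, with a signal of at most 92.0. The longest intron of kirre, intron 3 with 132044 bp, lies there and had 0 summits.

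The stretch without summits in kirre is also where most of its inner genes lie. Of 22 genes annotated wholly inside kirre, 19 are in it, among them white (w), the eye pigment transporter gene, and roughest (rst), the paralog of kirre, both named after their values were seen. The strongest summit of kirre, at 2786765, had a signal of 431 in the combined list, 208 in replicate 1 and 221 in replicate 2. It lies in an intron of an inner gene on the opposite strand, CG32795 (X 2782906 to 2790567), which held 5 of the 25 summits. The second, at 2744252, had 371 in the combined list, 153 in replicate 1 and 226 in replicate 2, and lies 176 bp from a transcript start of Syx4, a syntaxin gene that overlaps the 5′ end of kirre. The third, at 3046136 in intron 5, had 310 in the combined list, 131 in replicate 1 and 184 in replicate 2. So replicate 2 had its highest value at Syx4 and replicate 1 at CG32795, and the nearest transcript start was that of another gene for 14 of the 25 summits. At an own transcript start of kirre, within 500 bp, there was 1 summit, at 3100050, with a signal of 70.4 and in neither replicate's thresholded list.

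CG1677 (FBgn0029941, X 7281089 to 7405797, minus strand) encodes a protein that is not characterised in the annotation. All 23 summits lie in intron 2 of its longest transcript, which spans 73902 bp, and none is within 500 bp of a start of CG1677. That transcript is 1 of 4, and the next longest covers 5107 bp and none of the summits. A long noncoding RNA, CR44357, overlaps the gene on the same strand and spans all 23 summits too. Inside CG1677 lie 13 coding genes, and for each of the 23 summits the nearest transcript start was that of another gene.

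The strongest summit of CG1677, at 7325033, had a signal of 553 in the combined list, 238 in replicate 1 and 304 in replicate 2. It lies inside Dok, an adaptor protein gene, 819 bp from its start. The second, at 7337051, with 359 in the combined list, 146 in replicate 1 and 206 in replicate 2, lies 301 bp from a start of CBP, and was the only promoter summit of CG1677. Further summits lay in the bodies of Atg5, an autophagy gene (2 summits), and CBP (1 summit). The third, at 7293763, had 300.03 in the combined list, 161 in replicate 1 and 149 in replicate 2. It lies 2465 bp from the start of unc-119, an inner gene named after its values were seen, and 5 summits had that start as their nearest.

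The inner gene brinker (brk) was the nearest start of the largest number of CG1677 summits, 9 of 23, and was named after its values were seen. brk encodes a repressor of Dpp target genes. No summit lies in its body (X 7307939 to 7311132, plus strand), but 8 lie within 7.5 kb upstream of it. Of these, 4 were in the thresholded lists of both replicates, and the strongest, at 7302551, had a signal of 234 in the combined list, 98.5 in replicate 1 and 135 in replicate 2. The ninth, at 7312579, lies past the 3′ end of brk and was in neither list.

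Tet (FBgn0263392, 3L 2786207 to 2879158, minus strand) is the fly member of the TET dioxygenase family. Of its 19 summits, those inside the gene lie between 2795796 and 2865753, and no gene is annotated inside Tet. Intron 5 of the longest transcript, 54877 bp long, held 15 summits, introns 3, 4 and 6 held 1 each, and 1 lay 791 bp upstream of the gene. At least 50% of its 6 transcripts span 18 of the 19. The strongest summits form a pair in intron 5, and the nearest start to both is an internal one of Tet. The one at 2824201, 3098 bp from that start, had a signal of 520 in the combined list, 210 in replicate 1 and 303 in replicate 2. The one at 2823178, 2075 bp away, had 419 in the combined list, 174 in replicate 1 and 238 in replicate 2. The summit upstream of the gene, at 2879949, came next with 236 in the combined list, 110 in replicate 1 and 124 in replicate 2. The other 16 summits had at most 234. Among them, those within 500 bp of the internal start, at 2821204 and 2821405, had 96.0 and 37.3. The first was in replicate 2's thresholded list only and the second in neither list.

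heca (FBgn0010113, 3R 30277932 to 30372382, plus strand), or headcase, is a gene first known from the imaginal cells that form the adult. It is the only one of the 7 with no promoter summit, its own starts included. Intron 1 (28904 bp) held 7 summits and intron 2 (49001 bp) held 10, and 1 lay 936 bp upstream. The strongest lie together in intron 1. The summit at 30296166 had a signal of 527 in the combined list, 230 in replicate 1 and 308 in replicate 2. The one at 30293702 had 431 in the combined list, 176 in replicate 1 and 252 in replicate 2. The next, at 30284167 in the same intron, had 256 in the combined list, 111 in replicate 1 and 145 in replicate 2. All 3 were in both replicates' thresholded lists. The 2 genes annotated inside heca, CG34300 and a noncoding RNA, held no summit, but the start of CG34300 was the nearest for 4 summits, 5622 to 12935 bp away.

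Tlk (FBgn0283657, X 3720007 to 3789770, plus strand) encodes the Tousled-like kinase, a serine/threonine kinase known for its part in chromatin assembly. All 17 summits lie in intron 2 of the longest transcript (60007 bp), and 15 are spanned by at least 50% of its 14 transcripts. Tlk had the highest signal of all 132 summits. At 3742213 it was 925 in the combined list, the 57th of 5750, with 414 in replicate 1 and 512 in replicate 2. That summit made up 28.5% of the summed signal of the gene. The next were 305 at 3743653 (157 in replicate 1, 170 in replicate 2) and 296 at 3774431 (137 in replicate 1, 163 in replicate 2), so the first was the highest in both replicates. Within 500 bp of an own start lay 3 summits. Another summit, at 3777417, lies inside the microRNA gene mir-4962, which is annotated within Tlk together with a pair of small unnamed RNAs. It was classed as promoter only through the annotated starts of these small RNAs, the nearest 9 bp away. The nearest start of Tlk was 1358 bp away. This summit had a signal of 97.6 and was in replicate 2's thresholded list only.

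Svil (FBgn0266696, 3L 2377655 to 2499226, plus strand) encodes Supervillin, an actin-binding protein of the villin and gelsolin family. It has 31 transcripts and 16 transcript starts, and only 1 of its 15 summits is spanned by at least 50% of the transcripts. Introns 2, 11 and 13 of the longest transcript held 5, 8 and 2 summits. Svil had no summit that stood out. The strongest was 235 at 2494318, 220 bp from an own start, with 91.7 in replicate 1 and 137 in replicate 2. Next came 230 at 2487453, with 73.3 in replicate 1 and 153 in replicate 2, and 217 at 2418976, with 91.4 in replicate 1 and 124 in replicate 2. The highest of replicate 1 was at 2417661, with 100.1, and that of replicate 2 was at 2487453, so the replicates did not share a strongest site in Svil. No summit lay in the body of the 6 genes inside Svil, and 1, at 2478847, lay 399 bp from the start of the cytochrome P450 gene Cyp4d20, with a signal of 91.2.

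CG43658 (FBgn0263706, X 17456169 to 17561180, minus strand) encodes a protein that is not characterised in the annotation. It differed from the others in having 4 of its 15 summits upstream of its 5′ end. The summits there span 1402 bp and include its strongest, at 17562067, with a signal of 326 in the combined list, 136 in replicate 1 and 193 in replicate 2. Beside it, 216 bp from the start, a summit at 17561396 had 272, with 135 in replicate 1 and 144 in replicate 2. In the gene, the highest were 284 at 17491352 (111 in replicate 1, 174 in replicate 2) and 277 at 17531612 (120 in replicate 1, 165 in replicate 2), the latter 158 bp from an internal start. These values were close to one another in both replicates. Intron 4 (67902 bp) held 9 summits and intron 2 held 2. The single gene inside it, a noncoding RNA, held none.

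Most summits of the 7 genes were intronic, and few were at promoters, defined as 500 bp to each side of every annotated transcript start. Introns held 108 of 132, or 81.8% (95% exact binomial interval 74.2 to 88.0), against 45.7% of all 5750 summits. Promoters held 18, or 13.6% (8.29 to 20.7), against 35.8%. Of the 18, 11 were at a start of the gene itself. Coding exons held 0 of 132, which allows a share of up to 2.76%, against 0.348% of all. These intervals cover counting error only.

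The class of the bases moved with these shares. Of the bases in the 7 windows, 78.7% were intron, 9.12% promoter and 6.92% coding exon, so the intron share of summits was close to that of bases. The promoter share of summits, 13.6%, was above that of bases, which its interval (8.29 to 20.7) still held. Intergenic positions held 5 summits, 3.79% (1.24 to 8.62), on 0.483% of the bases, and 3 of the 5 were upstream of CG43658. In the 89 other coding genes of 50 kb or more with 5 or more summits, 83.2% of 731 summits were intronic and 13.3% at promoters. There introns made up 80.5% of bases and promoters 6.71%. Intergenic positions of those genes held 1.92% of the summits on 0.827% of the bases. The intron share of the 7 genes is therefore near that of other long genes with several summits. By gene, the intron share of bases ran from 62.0% in Svil, which has the most starts, to 84.2% in kirre.

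**Figure D3:**
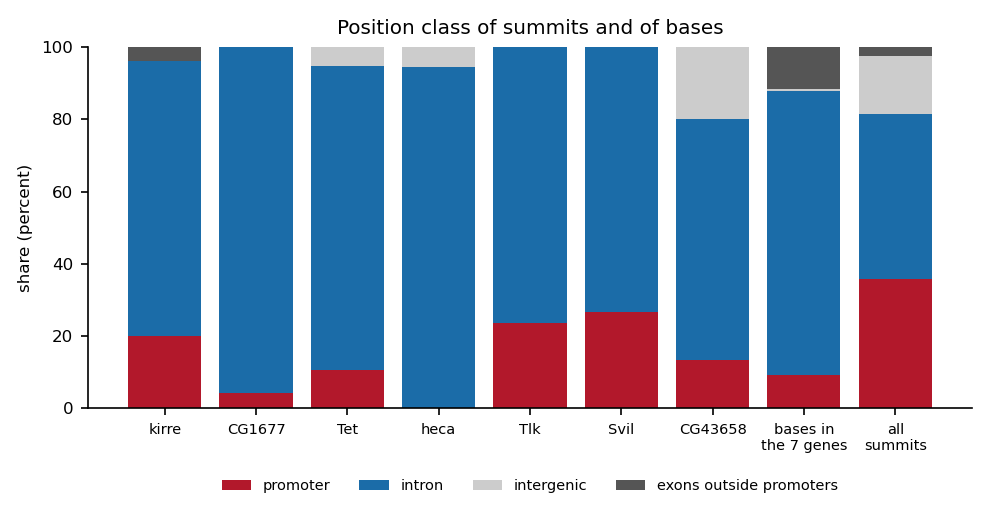
Share in percent (vertical axis) of promoter, intron, intergenic and other exon positions among the summits of each of the 7 genes, among the bases of their windows, and among all 5750 summits. Introns make up most of each of the 7 bars, as they do of the bases (78.7%), while all summits have 45.7% in introns and 35.8% at promoters.

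Within introns, summits were divided between long and short ones much as the bases are. The longest transcripts of the 7 genes have 65 introns, and 15 of them, of 1257 to 121519 bp, held 126 summits. Introns of 10 kb or more made up 94.8% of the intron bases and held 122, or 96.8%, of these summits. Among single introns with summits the density ran from 0.576 per 10 kb in intron 2 of kirre to 7.96 in intron 6 of Tet, where it rests on 1 summit. The longest intron of each gene held 79 of the 132, with all of CG1677 and Tlk, 15 of Tet, 10 of heca, 9 of CG43658, 5 of Svil and 0 of kirre. For 74 summits, at least 50% of the gene's transcripts spanned the site, with 18 of 19 in Tet, 17 of 18 in heca, 15 of 17 in Tlk, 18 of 25 in kirre, 5 of 15 in CG43658, 1 of 15 in Svil and 0 of 23 in CG1677. The nearest transcript start was an own one for 80 of 132.

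Inner genes held few of the summits. In all, 47 genes lie wholly inside the 7, 41 of them coding, and 41 of the 47 had no summit in their body. The 10 summits inside one were 7.58% of 132 (3.69 to 13.5), against 3.91% of all summits inside a gene nested in another coding gene. All summits include those outside long genes, and the share of bases in inner genes was not measured, so these shares are not directly comparable. The 10 were the 5 in CG32795, 2 in Atg5 and 1 each in Dok, CBP and mir-4962. The summit in mir-4962 also lies in a 24 bp RNA annotated inside that gene, which is counted as a further inner gene. Thus kirre and CG1677, with 22 and 13 inner genes, had 9 of the 10.

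Pooled over the 7 genes, summits lay closer together than neighbours on the arms in general, but the genes differed. The median distance between neighbours was 1983 bp (quartiles 751 and 6664, 125 distances), against 2629 bp over 1356 distances in the 224 other coding genes with 5 or more summits and 6917 bp over all neighbours on the arms. With the fewer summits of a single replicate the median was 3582 bp without replicate 1 and 3702 bp without replicate 2. A high count in a gene shortens its distances, so this follows in part from the choice. CG1677 was the tightest, with a median of 745 bp, then Tlk with 1239 bp. heca, kirre and Tet had 2464, 2522 and 2849 bp. Svil, with 4129 bp, and CG43658, with 5041 bp, were the most open. In the 224 other genes the median of the gene medians was 2734 bp, with a range of 291 to 19325.5 bp. Tet, Svil and CG43658 were above that median, and the rest of the 7 genes were below it. Joining summits at most 2000 bp apart left 69 groups, from 6 in Tlk and 7 in CG1677 to 14 in kirre, and the largest groups had 6 summits, in CG1677, heca and Tlk.

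**Figure D4:**
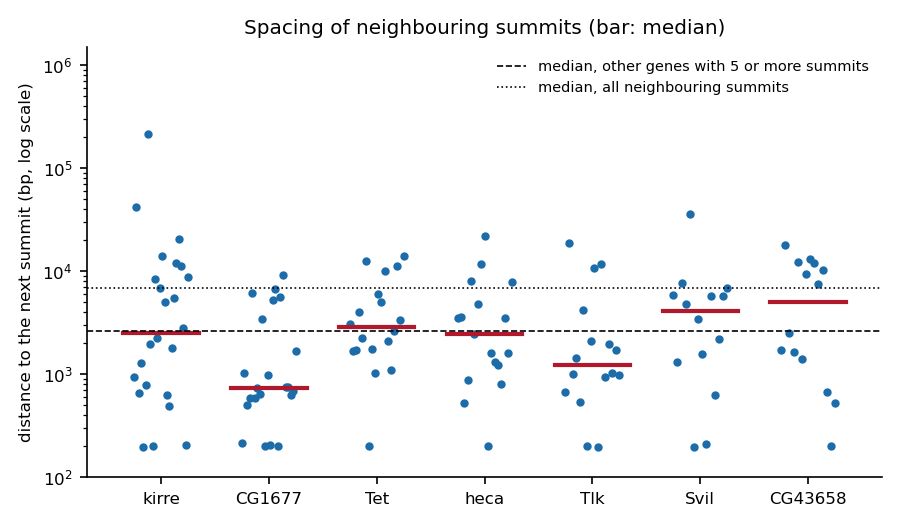
Distance in bp (log scale) from each summit to the next in each of the 7 genes, with a red bar at the gene's median and lines at the medians of other genes with 5 or more summits (2629 bp) and of all neighbours (6917 bp). Medians run from 745 bp in CG1677 to 5041 bp in CG43658, each gene has points near 200 bp, and kirre has the one distance above 100 kb.

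Each gene also had summits so close that they may not be separate peaks, which was not tested. In 14 pairs, at least 1 in every gene, the summits were 199 to 218 bp apart. The closest pairs began at 2788724 in kirre, 7319243 in CG1677, 2821204 in Tet, 30334524 in heca, 3761477 in Tlk, 2467606 in Svil and 17562067 in CG43658. Both members of each pair had the same IDR value to within 0.01 on the −log10 scale, and the weaker one had a signal of 2.65 to 63.2. Counting each summit at most 300 bp from a stronger one, 14 of 132 or 10.6% (5.92 to 17.2) were of this kind, against 7.69% of all summits. Of these 14, 12 were in neither replicate's thresholded list and none was in both, and 10 had no peak within 100 bp even in the ranked list of either replicate. Without them the 7 genes held 118 summits, with the median distance at 2506 bp.

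The signal of the summits had nearly the median of all peaks, with a higher upper quartile and a lower maximum. The median was 111, against 112 for all 5750, with quartiles of 81.6 and 216 against 81.9 and 185. The highest was 925, against 2333 over all peaks. Among the 1150 strongest of all peaks, which is 20% by definition, were 37 of the 132, or 28.0% (20.6 to 36.5). By gene the medians ran from 96.0 in Tet and 105 in CG43658 to 134 in Tlk and 140 in kirre. The highest signals of Tlk, CG1677, heca, Tet and kirre were between 431 and 925, those of CG43658 and Svil 326 and 235.

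Support by the replicates was close to that of peaks in general. A summit counted as supported where a replicate's own thresholded list had a summit at most 100 bp away. Of the 132, 66 or 50% (41.2 to 58.8) were supported by both, against 50.2% of all, and 29 or 22.0% (15.2 to 30.0) by neither, against 22.7%. Replicate 1 alone supported 15 and replicate 2 alone 22. The share in both was highest in kirre, at 15 of 25, and Tlk, at 10 of 17, and lowest in Tet, at 7 of 19. heca had the most unsupported summits for its number, 6 of 18, and Svil the fewest, 1 of 15.

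Support moved with signal, which follows in part from the combined signal being that of both replicates together. All 50 summits with a signal of 150 or more were in both lists, as were 97.2% of all such peaks. From 80 to 150 it was 16 of 50, or 32%, against 39.3%, and below 80 it was 0 of 32, against 1.11%, with 25 of the 32 in neither list. The weak summits thus make up most of those that only the combined list holds. Leaving out summits beside a stronger one, 66 of 118 or 55.9% were in both, against 54.2% of all such peaks.

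Of the 29 summits in neither list, 12 lay at most 300 bp from a stronger summit and 17 did not. In kirre those at 2788923, 3008177 and 3100255 lay beside a stronger summit and had signals of 10.2 to 18.4. The other 4 of kirre, at 2788724, 2789717, 3065573 and 3100050, had signals of 64.1 to 78.6, and those at 2788724 and 3100050 were themselves the stronger summits of close pairs. In CG1677 those at 7292235, 7306163, 7307351 and 7319443 lay beside a stronger one (16.5 to 63.2) and those at 7312579 and 7338728 did not (85.8 and 92.1). In heca, 30334724 had 3.03 beside a stronger summit, while 30280544, 30301015, 30339671, 30343175 and 30352740, with none stronger beside them, had 59.8 to 78.5. Tet had 37.3 at 2821405 beside a stronger one, and 75.9 and 75.1 at 2835211 and 2845328. CG43658 had 7.87 at 17562267 beside its strongest summit, and 75.8 to 86.5 at 17473449, 17495490 and 17518502. Tlk had 2.65 at 3761676 beside a stronger summit and 89.4 at 3741214, and the only one of Svil, at 2467805, had 4.26 beside a stronger one. The unsupported summits with no stronger one beside them thus had 59.8 to 92.1, below the median of 111 over all 132.

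**Figure D5:**
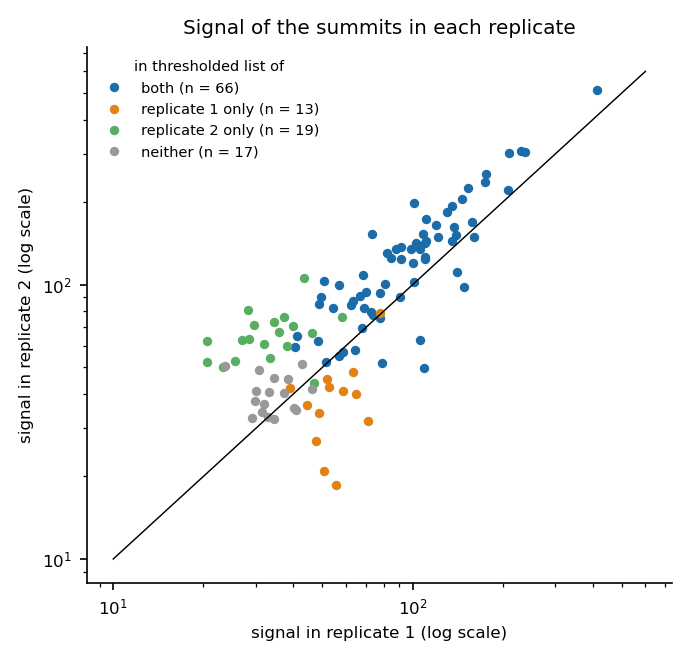
Signal in replicate 2 (vertical axis) against signal in replicate 1 (horizontal axis), both log scale with no unit, for the 115 summits of the 7 genes with a ranked peak in both replicates, and the line of equality. Points rise together, 88 of 115 lie above the line, and the summits in both thresholded lists (blue) reach the highest values.

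The replicates ranked the summits alike. Of the 132, 115 had a peak in the ranked lists of both replicates, and Spearman's rho between the signals was 0.776, against 0.793 for 5075 of all summits. In single genes it ran from 0.657 in Tet (17 summits) and 0.662 in CG1677 (18) to 0.842 in CG43658 (14) and 0.870 in kirre (22). These are correlations across summits of the same libraries, which are not independent, and they carry no p-value. The strongest summit was the same in replicate 1, replicate 2 and the combined list in 5 of the 7 genes, all but kirre and Svil. Replicate 2 had the higher signal at 88 of the 115, and at 3879 of the 5075. The scale of the signal may differ between the lists, so its level is not compared between replicates.

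The threshold kept a larger part of the ranked peaks in these genes than elsewhere. The combined ranked list held 683 summits in the 7 windows, 6.72 per 10 kb, against 4.89 over the arms. Of these, 19.3% passed the threshold, against 8.79%. CG1677 had the highest share, 33.3% of 69, and kirre the lowest, 11.5% of 218. The ranked density of kirre, 5.50 per 10 kb, and that of CG1677, 5.45, were almost equal, so the difference between these genes lay in the share that passed. The genes were chosen by the peaks that passed, so these shares are given as a description.

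Apart from kirre, the longest stretch without a summit was 36065 bp in Svil, from 2431541 to 2467606, where 21 ranked peaks had a signal of at most 48.9. In heca it was 21774 bp (30312750 to 30334524), in Tlk 18785 bp (3722429 to 3741214) and in CG43658 17903 bp (17473449 to 17491352). It was 14196 bp in Tet (2865753 to 2879949) and 9196 bp in CG1677, from 7325033, its strongest summit, to 7334229. The stretches of these 5 genes held between 1 and 17 ranked peaks each, none with a signal above 72.6. No base was unknown in any of them or in that of Svil. The stretch of kirre was longer than those of the other 6 genes together.

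The GC content and the shares of the more frequent words were near those of other summits. In the windows of the same size around every summit, the median GC content was 35.3%, the same as over all 5750. GAGAG, the core that GAGA factor and CLAMP bind, was present on either strand in 34 windows, 25.8% (18.5 to 34.1), against 24.3% of all. It was most frequent in Tet, with 9 of 19 windows, and least in kirre, with 2 of 25. GCCAT, the core of the Polycomb recruiter Pho, was also in 34 windows, against 24.4% of all. CACACA, a repeat of the Combgap type, was in 27, 20.5% (13.9 to 28.3), against 16.3%, and TTATCA, the GATA core, in 21, 15.9% against 16.2%. AAGTCA, the core of Tailless, a nuclear receptor known to recruit Atrophin, was in 12, or 9.09% against 9.93%. CATTCC, the Scalloped core, was in 8, or 6.06% against 7.18%.

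The rarest words had too few matches to place. CAGGTA, of the Zelda and Snail type, was in 2 windows, 1.52% (0.184 to 5.37) against 3.88%, and the E-box CACGTG was in 2, against 1.90%. AGGTCA, a nuclear receptor half-site, was in 1 window, in Svil, 0.758% (0.0192 to 4.15) against 3.60%. TATCGATA, the DREF site, was in none of the 132, which allows up to 2.76%, against 1.29%. For each of the 10 words the interval of the 7 genes held the share of all summits, which does not show that the shares are equal. The intervals count each summit as independent, although windows of close pairs can overlap, so they may be too narrow. Words were not compared within a position class, and promoters were 13.6% of these summits against 35.8% of all. A match is a stretch of letters and not a site shown to be bound, and some words can overlap, as in the run of the Tlk window.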

How the data were processed

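Chromatin immunoprecipitation of Gug-eGFP was measured in 2 replicates of whole prepupae, numbered as in the labels. The authors deposited ranked and thresholded peak lists on dm6, for each replicate and for both together, with thresholds on the irreproducible discovery rate (IDR), a measure of how well peak ranks hold between replicates or pseudoreplicates. The signal of each peak was deposited by the authors with no unit, and a control alignment entered every list, per the deposited README files. The −log10 global IDR, deposited by the authors in the ranked lists, was used for the alternative threshold. Aligner, caller and IDR settings are not given in the sources used here, nor is read depth, so no precision from depth can be stated.

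The larger thresholded list of both replicates (5753 peaks, 5750 on the 6 arms) was the main one. Replicate 1 had 3826 and replicate 2 had 3999 peaks on the arms, the conservative set 5707. Genes were those of Ensembl release 115 on the same assembly, with transposable elements left out, and sequence was RefSeq's. The peaks of the main list and the genes were checked to end within the RefSeq arm lengths. A summit's class was promoter where that applied, or else UTR (5′ before 3′), then coding exon, any other exon, intron or, last, intergenic. The longest transcript of a gene gave its introns. An inner gene lies wholly inside another's span. Shares carry 95% exact binomial intervals (scipy 1.17.1). Tables were made with python 3.11.15, numpy 2.4.6 and pandas 2.3.3, and figures with matplotlib 3.10.9. Counting, position classes and the removal of summits beside a stronger one were tested on simulated or random positions. Spacing and the matching to the replicate lists were not tested in this way.

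No test was run, because the genes were picked on their counts and there is 1 group. The members, word list and measures were chosen with earlier results of these data known. Named beside the 7 genes were inner genes with a summit in the body or within 500 bp of a start, genes next to a summit upstream of a member, genes next in the order of counts, and those with the highest count among genes of similar length. For each gene the strongest 3 summits were named, with those of its longest stretch without a summit and closest pair. Summits in neither replicate's list were all named. Alternatives were the conservative set, each replicate alone, an IDR of 0.001, summits beside a stronger one left out, the gene body without upstream sequence, other promoter widths (250 and 1000 bp), other matching distances (50 and 200 bp, or any overlap) and other length sets (within 10%, within 50%, or the gene's own arm).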

Additional observations from a re-analysis of the deposited data

How the results depend on the processing

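Single replicates gave fewer summits, 84 to 94 in the 7 genes against 132. Among these, 70.2% to 78.6% were in both replicates' lists against 50%, as follows from drawing them from one of those lists, and the median distance was 3582 to 3702 bp against 1983 bp. The median signal was 78.5 to 90.2, on the scale of the replicate lists. An IDR of 0.001 raised the share in both lists to 68.8% and the median signal to 154, since it removes weak peaks. Leaving out summits beside a stronger one raised the median signal to 133 and the median distance to 2506 bp, and the conservative set gave 2110 bp. With promoters of 1000 bp, 25.8% of summits were at promoters and 72.7% in introns, and with 250 bp 6.06% were at promoters, as the definition fixes. All 7 genes stood above the upper quartile of their length set under every alternative, except that 6 did on the gene's own arm, where kirre has no gene of similar length. By more than 1.5 times, counts of single genes changed for 3 genes without replicate 1 (CG1677 15, heca 11, CG43658 9), for 4 without replicate 2 (CG1677 15, Tet 10, heca 9, Svil 8) and for 1 at an IDR of 0.001 (Tet 8), and for none under the other alternatives. The causes of these changes in single genes were not tested. No paired analysis was possible because there is a single group. Read depth was not given, so its part in the number of weak summits cannot be stated.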
